A study of Homo sapiens with 6 samples.

Results

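Antisense genes are genes named after a neighbour and transcribed from the opposite strand, and 313 of them were detected in MIA PaCa-2 cells, a human pancreatic carcinoma cell line. The deposited gene table listed 1207 genes whose symbol ends in -AS and a number, among 35993 genes in all. The genes were chosen by their deposited read counts: a gene was taken as detected when its count was 10 or more in all 3 untreated libraries or in all 3 libraries of cells given rhCYGB. The 313 genes (25.9% of 1207) met this rule in both groups in 238 cases, in the untreated group only in 63 and in the rhCYGB group only in 12. Of the others, 622 had 0 counts in every library and 272 had counts below the rule. Each detected gene was paired with the gene whose symbol stands before -AS, its sense partner. A partner was found for 306 genes, 3 of them through an older symbol, and some partners had more than 1 antisense gene, which left 301 distinct partners. The 7 genes without a partner in the table were PRR34-AS1, HOXA-AS2, KRTAP5-AS1, HOXB-AS3, RPARP-AS1, TRG-AS1 and HOXB-AS1, some of which carry the name of a gene cluster.

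Antisense transcripts can start close to the start of a coding gene and run away from it, share exon sequence with it, or lie further along it. Most are long noncoding RNAs, many are turned over in the nucleus by the RNA exosome, and a transcript that shares exon sequence with its partner is complementary to it over that stretch. Individual antisense RNAs have been described as acting on their partner's transcription, on its RNA or on unrelated targets, while others have no known role. In the gene annotation used here, 311 of the 313 genes were classed as lncRNA and the other 2 as antisense RNA. The deposited table gave 185 of them a single transcript, and at most 12 transcripts.

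The cells were cultured in 1% FBS and were either left untreated or given 4 µM rhCYGB for 48 h. The agent is a 6His-tagged recombinant human cytoglobin, a globin that reacts with oxygen species, made in E. coli. Both groups were of this single line without any genetic change named in the labels, and nothing in the labels says that the 3 libraries of a group were separate cultures, so p-values measure the spread between these libraries, which may be technical. The comparison asked which RNAs differ in cancer cells after exposure to the protein.

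The gene counts summed to between 34838399 and 42271299 per library, and 3 counts, the limit that a count of 0 allows, corresponded to 0.0669 to 0.0902 CPM (counts scaled to library size, with edgeR's TMM factors). Libraries of a group correlated at 0.987 or more in log2 CPM and libraries of different groups at 0.929 or less. VIM, KRT8, KRT18 and KRT19 had 5886 counts or more in every library, whereas CDKN2A, which this line lacks, the leukocyte gene PTPRC, the acinar genes PRSS1, CPA1 and CELA3A, and CYGB itself were at 0 in all 6. CDH1, chosen with VIM and the keratins as a marker of this line, had 2 counts in untreated library 1 and 0 elsewhere. Of the fibroblast genes, COL1A1 had 0 to 10 counts, PDGFRB 0 to 5 and ACTA2 180 to 243.

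To show what a divergent pair looks like in DNA, the sequence between both start sites is printed for 5 pairs. In such a pair the antisense gene starts upstream of its partner and runs the other way, so that a short stretch separates both transcripts. The pairs were taken because their start sites are close, with little or no annotated UTR between them, and because their changes after rhCYGB differ. DICER1-AS1 lies outside the rule for named genes and was chosen after its values were seen. DICER1-AS1, ARRDC3-AS1 and ATP2A1-AS1 met the detection rule in untreated cells only, so their lower counts after rhCYGB entered the choice. Each run reads 5′ to 3′ on the antisense gene's strand, from the partner's start to the antisense start, in GRCh38.p14 as tabulated by RefSeq. Capitals mark a GC box (GGGCGG) or a CCAAT box (CCAAT) on either strand. In ARRDC3-AS1 the antisense gene was lower and its partner higher, in ATP2A1-AS1 both were lower, in UBA6-AS1 the antisense gene was called higher and its partner stayed below 2-fold, in TRIM52-AS1 the antisense gene was higher by less than 2-fold and its partner lower, and in DICER1-AS1 the antisense gene was lower and its partner higher by less than 2-fold.
ARRDC3-AS1, chr5:91380098-91380346, plus strand: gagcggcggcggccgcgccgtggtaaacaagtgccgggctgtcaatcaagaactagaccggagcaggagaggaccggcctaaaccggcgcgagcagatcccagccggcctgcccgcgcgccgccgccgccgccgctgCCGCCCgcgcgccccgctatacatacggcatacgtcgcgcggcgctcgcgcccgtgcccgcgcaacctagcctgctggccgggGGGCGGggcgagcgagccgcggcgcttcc
ATP2A1-AS1, chr16:28879922-28880042, minus strand: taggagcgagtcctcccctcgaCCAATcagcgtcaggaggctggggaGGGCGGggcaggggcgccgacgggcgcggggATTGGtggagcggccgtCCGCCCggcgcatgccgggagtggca
UBA6-AS1, chr4:67701156-67701277, plus strand: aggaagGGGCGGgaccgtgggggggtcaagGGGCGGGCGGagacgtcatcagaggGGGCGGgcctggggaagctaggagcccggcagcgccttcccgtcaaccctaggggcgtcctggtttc
TRIM52-AS1, chr5:181261144-181261211, plus strand: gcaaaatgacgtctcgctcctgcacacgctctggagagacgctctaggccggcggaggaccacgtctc
DICER1-AS1, chr14:95157530-95157687, plus strand: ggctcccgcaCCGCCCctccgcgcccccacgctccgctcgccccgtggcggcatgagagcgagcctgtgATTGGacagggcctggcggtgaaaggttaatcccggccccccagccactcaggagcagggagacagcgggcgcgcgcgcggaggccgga

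These runs are rich in G and C, and 4 of the 5 hold a GC box, the pair without one being TRIM52-AS1. Over the 304 RefSeq promoter windows of 249 detected antisense genes (250 bases before to 50 after the start), the median GC content was 65.0%, against 58.7% over all 35116 windows and 69.7% over the 86 windows of divergent pairs. A GC box was found in 61.8% of the antisense windows, in 77.9% of the divergent ones and in 45.0% of all windows. The TATA box (TATAAA) was found in 5.92%, 2.33% and 11.5%, and CCAAT in 28.6%, 25.6% and 34.6%, respectively. Of longer motifs, the cyclic AMP element (TGACGTCA) was in 2.96% of the antisense and 1.85% of all windows, the NRF1 motif in 3.62% and 1.24%, the ETS motif (CCGGAAGT) in 5.92% and 4.14%, the E-box (CACGTG) in 9.21% and 7.26%, and the AP-1 motif (TGACTCA) in 3.95% and 4.95%. The core of the CHOP-ATF4 element (TGATGCAA) was in 0 antisense windows and in 0.866% of all windows. All were searched on both strands, and windows of a gene with several starts overlap.

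Other pairs share exon sequence, and 30 bases of the longest complementary run are shown for 3 of them, in which both genes fell (TMPO), moved in opposite directions (GABPB1) or were both called higher (CCND2). The first line of each pair is the antisense RNA as DNA letters and the second is its partner, each 5′ to 3′ in its own direction, from GENCODE 29 transcripts on GRCh38. CCND2-AS1 met the detection rule after rhCYGB only, so its higher counts entered the choice. The whole run measured 389 bases for TMPO, 428 for GABPB1 and 126 for CCND2.
TMPO-AS1, chr12:98515692-98515721: gcggacacaaagccaagccagacccggaca
TMPO: tgtccgggtctggcttggctttgtgtccgc
GABPB1-AS1, chr15:50355180-50355209: ggagggacacatggtgtgcgagtgagtcaa
GABPB1: ttgactcactcgcacaccatgtgtccctcc
CCND2-AS1, chr12:4276107-4276136: ggccaggaacatgcagacagcacccaggag
CCND2: ctcctgggtgctgtctgcatgttcctggcc
Reads from such a stretch can be given to the right gene only by their strand. The library kit keeps the strand, but whether the counting used it is not stated in the sources used here, so that reads of an antisense gene and of its partner may not be fully separated where exons overlap; this was not tested. GENCODE 29 placed 278 pairs, all on opposite strands, and 204 of these shared exon bases, with a median of 294.5 bases or 11.4% of the antisense exons.

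Most of the antisense genes were expressed at a low level. To compare genes, levels were taken per length as FPKM, averaged over all 6 libraries. The median was 0.771 FPKM for the antisense genes, 7.52 for the sense partners and 5.53 for all genes tested. The antisense genes ranged from 0.0363 to 52.3 FPKM, and 126 of them reached 1 FPKM and 7 reached 10 FPKM. In 294 pairs whose partner had any FPKM, the antisense level had a median of 9.14% of the partner's level, with quartiles at 2.90% and 49.9%. It exceeded the partner's level in 70 pairs.

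**Figure D1:**
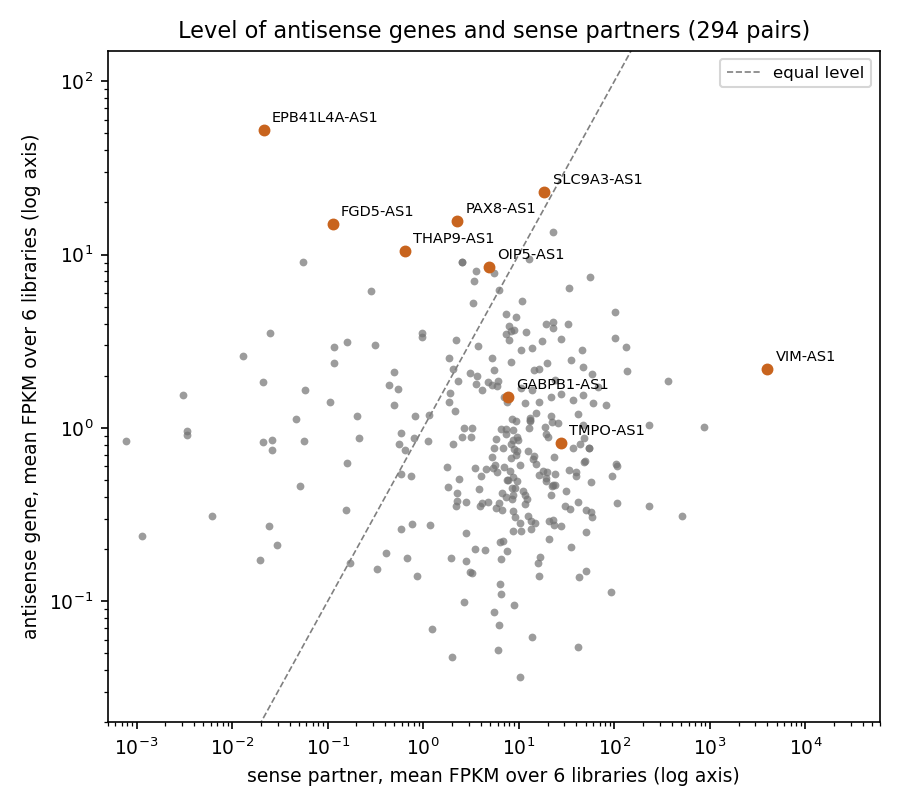
Mean FPKM over all 6 libraries of each antisense gene (vertical, log axis) against its sense partner (horizontal, log axis) for 294 pairs. The dashed line marks equal levels, and 70 pairs lie above it, among them EPB41L4A-AS1, PAX8-AS1, FGD5-AS1 and THAP9-AS1, whereas VIM-AS1 lies far below.

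The 10 antisense genes with the highest FPKM were EPB41L4A-AS1, SLC9A3-AS1, PAX8-AS1, FGD5-AS1, ARHGAP5-AS1, TLR8-AS1, THAP9-AS1, RNASEH1-AS1, AGAP2-AS1 and TRIM52-AS1, with means over 6 libraries from 52.3 down to 9.09 FPKM. EPB41L4A-AS1 was at 18.6 ± 0.712 FPKM (SD, n = 3) in untreated and 86.0 ± 4.76 FPKM in rhCYGB-treated cells. SLC9A3-AS1 followed at 21.9 ± 2.03 and 24.1 ± 0.925 FPKM. TLR8-AS1 dropped from 16.8 ± 0.466 to 4.71 ± 0.380 FPKM, and its partner TLR8, an RNA receptor of immune cells, had 0 counts in all 6 libraries. In untreated cells EPB41L4A-AS1 lay close to SLC9A3-AS1 and to ARHGAP5-AS1 (19.5 ± 1.82 FPKM), and after rhCYGB it stood above both. Several partners of the abundant genes were hardly counted, as EPB41L4A had 6, 0 and 0 counts in untreated and 11, 0 and 4 in rhCYGB libraries.

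After rhCYGB more antisense genes were called lower than higher. A gene was called when edgeR's quasi-likelihood test gave a Benjamini-Hochberg adjusted p under 0.05 over the 14728 genes tested and the fold change was 2 or more. Of the 313 antisense genes, 25 were called higher (8.0%) and 83 lower (26.5%), where 12.4% of all genes tested were called higher and 14.7% lower. Part of this count follows from the rule, because meeting it in 1 group only favours genes that are higher in that group, although 23 of 63 and 6 of 12 such genes did not pass the test. In the 238 genes that met the rule in both groups, 19 were called higher (8.0%) and 45 lower (18.9%), with a median log2 fold change (rhCYGB over untreated) of -0.32, against -0.005 over all genes tested. Of the 63 genes that met it in untreated cells only, 38 were called lower, and of the 12 that met it after rhCYGB only, 6 were called higher. In bulk RNA a lower level per cell and a smaller number of cells that express a gene cannot be told apart.

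Low counts and noncoding genes showed a like share of lower calls. The antisense genes had a median of 48.7 counts per library, against 790 for all genes tested. Between 25.2 and 113.5 mean counts, the range of the middle 50% of the antisense genes, 36 of 157 antisense genes (22.9%) were called lower, as were 482 of all 1968 genes tested in that range (24.5%) and 303 of its 1171 protein-coding genes (25.9%). In this range 14 antisense genes were called higher (8.9%), against 282 of all 1968 genes (14.3%). Of 695 other long noncoding genes tested, 221 were called lower (31.8%) and 83 higher (11.9%).

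The sense partners leaned the other way. Of 274 partners tested, 45 were called higher (16.4%) and 32 lower (11.7%), with a median log2 fold change of 0.18. With an adjusted p under 0.05 and no limit on the fold, 143 partners were higher and 95 lower, that is 86.9% of those tested against 77.6% of all genes, and 46 antisense genes were higher and 129 lower (55.9%). The partner's direction depended on the scaling. With total counts in place of edgeR's TMM factors the median of all genes moved from -0.005 to -0.17, that of the antisense genes to -0.66 and that of the partners to 0.017, and 32 partners were then called higher and 35 lower. Under that scaling 17 antisense genes were called higher and 100 lower, and over all genes the calls moved from 1833 higher and 2165 lower to 1395 and 2719.

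**Figure D2:**
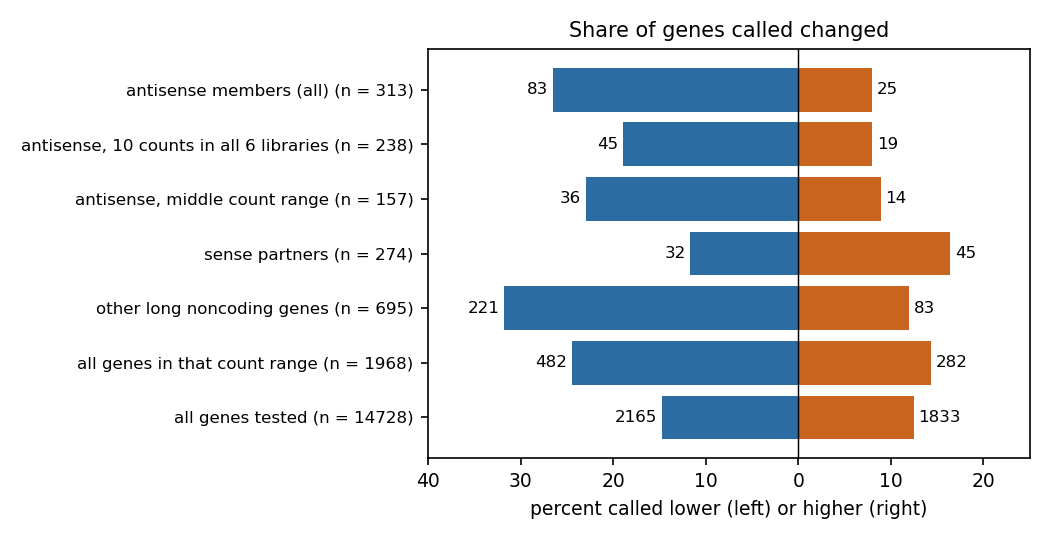
Percent of genes called lower (blue bars, to the left) and higher (orange bars, to the right) after rhCYGB in each set, with the number called at the bar's end and the number tested in the label. The antisense genes had 83 lower and 25 higher calls, the sense partners 32 and 45, and the sets of low-count and of other noncoding genes also had more lower than higher calls.

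The groups did not overlap in CPM in 140 of the 238 antisense genes that met the rule in both groups (58.8%) and in 241 of 274 partners (88.0%), against 79.5% of all genes tested. The summed CPM of the 313 genes was 1167 ± 13.0 (SD, n = 3) in untreated and 1192 ± 17.2 in rhCYGB-treated cells. EPB41L4A-AS1 and PAX8-AS1 carried much of the second sum, and without them it was 1130 ± 12.3 and 982 ± 20.8. As a share of all counts, which uses no scaling factor, the sum went the other way, from between 0.122% and 0.124% in untreated to between 0.112% and 0.113% in rhCYGB libraries. The 10 genes with the highest mean CPM, ranked separately in each group, held 31.2% of the antisense CPM in untreated and 44.4% in rhCYGB-treated cells.

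Of the genes called higher, EPB41L4A-AS1 and PAX8-AS1 had the highest mean FPKM. EPB41L4A-AS1 (chromosome 5, 111496223 to 111498198 in the deposited table, whose build is not named) is also the host of a small nucleolar RNA, and its partner encodes a band 4.1-like membrane skeleton protein. It had 898, 1027 and 998 counts in the untreated and 4666, 4378 and 4185 in the rhCYGB libraries, so that the groups were far apart. This was a rise of 2.37 ± 0.06 (SE) on the log2 scale (adjusted p = 2.04e-14, edgeR). PAX8-AS1 (chromosome 2, 113993104 to 114024600) lies across the gene of PAX8, a transcription factor of thyroid and kidney development. It had 456, 637 and 440 counts against 3318, 2771 and 3192, a rise of 2.80 ± 0.08 (adjusted p = 5.37e-14). PAX8 itself had 403, 457 and 417 counts and then 400, 307 and 409, and its groups overlapped (log2 fold change -0.005 ± 0.10, adjusted p = 0.966).

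THAP9-AS1, which starts inside the first part of THAP9, a gene derived from a transposase, had 477, 557 and 484 counts in untreated and 1700, 1317 and 1617 in rhCYGB libraries. It rose by 1.80 ± 0.07 (adjusted p = 1.96e-12). TRAF3IP2-AS1, named after the adaptor Act1 of interleukin-17 receptors, went from 96, 125 and 84 to 372, 376 and 420 counts (2.14 ± 0.13, adjusted p = 8.44e-10). Every rhCYGB library of these genes lay above every untreated one, which was a condition for the 12 largest rises. STXBP5-AS1, whose partner encodes the SNARE-binding protein tomosyn, had 12, 28 and 14 and then 89, 68 and 112 counts, a rise of 2.51 ± 0.30 (adjusted p = 1.62e-06). STXBP5 rose as well but by less than 2-fold (0.52 ± 0.05, adjusted p = 7.05e-08).

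A further 3 genes that met the rule in both groups rose among the 12 with the largest change. CRYM-AS1, next to the gene of a thyroid hormone-binding crystallin, went from 10, 13 and 15 to 41, 53 and 33 counts (1.94 ± 0.35, adjusted p = 0.000133), while CRYM had at most 6 counts in any library. USP2-AS1, next to a deubiquitinase gene, went from 61, 55 and 48 to 131, 188 and 149 counts (1.71 ± 0.22, adjusted p = 3.34e-06). UBA6-AS1, whose start lies 123 bases from that of the ubiquitin-activating enzyme UBA6, went from 77, 128 and 136 to 257, 223 and 291 counts (1.38 ± 0.16, adjusted p = 1.63e-06). None of these groups overlapped, as the choice required. With UBA6 at 0.28 ± 0.04 (adjusted p = 2.53e-05), the shared stretch of DNA printed above separated a gene called higher from one that stayed below 2-fold.

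The remaining 4 of the 12 met the detection rule after rhCYGB only, so their counts entered the choice and the difference is given without a test. CCND2-AS1 had 0 counts in all 3 untreated libraries and 23, 14 and 34 in the rhCYGB libraries, which is at least 8.88-fold higher against the mean floor of 3 counts per library. ZMIZ1-AS1 had 2, 6 and 8 and then 58, 60 and 81 counts, a log2 fold change of 3.80 ± 0.39. KRTAP5-AS1 had 8, 14 and 15 and then 35, 44 and 48 counts (1.97 ± 0.34). BCDIN3D-AS1 had 9, 13 and 11 and then 24, 18 and 43 counts (1.54 ± 0.41). Besides NRSN2-AS1, described with its partner, the other 12 antisense genes called higher lay between 1.04 and 1.51 on the log2 scale.

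**Figure D3:**
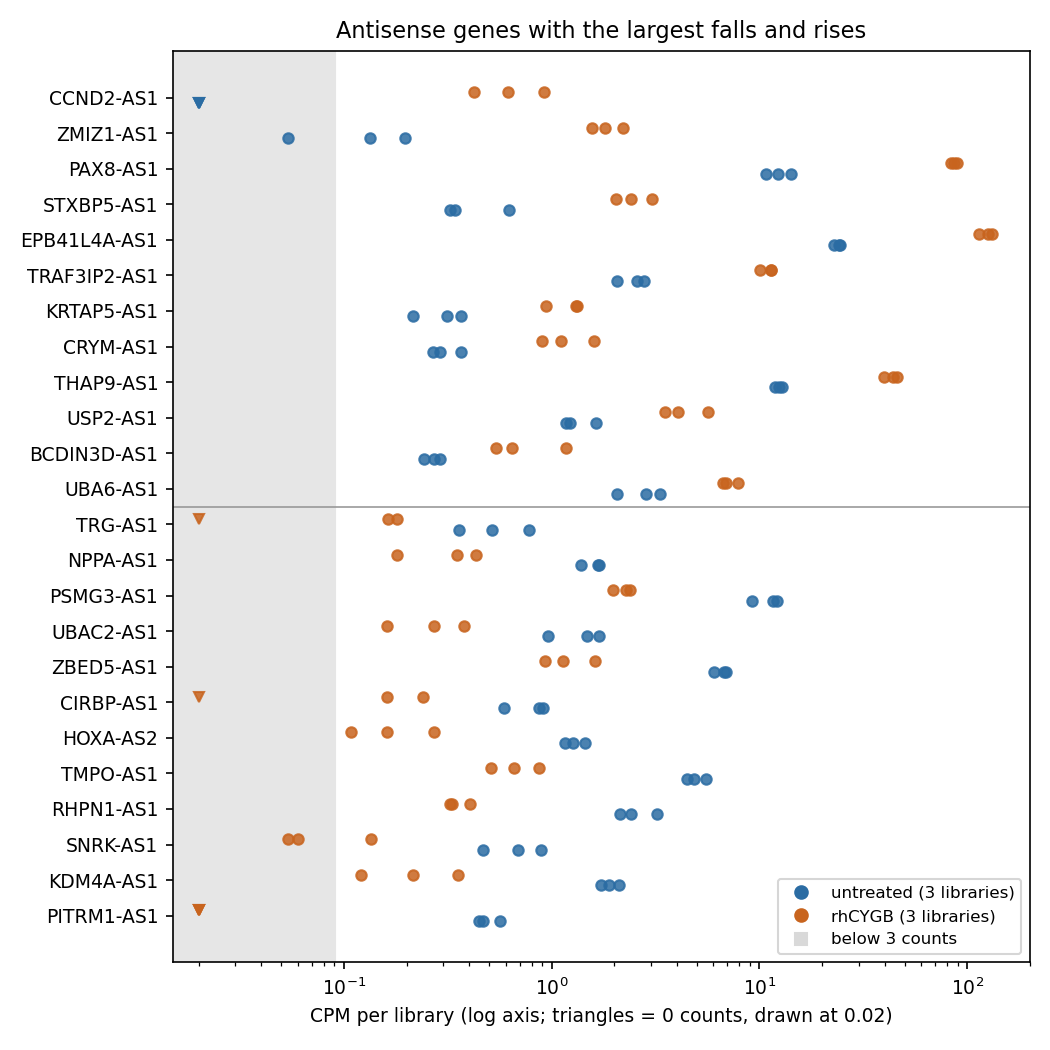
CPM of each library (horizontal, log axis) for the 12 antisense genes with the largest rise and the 12 with the largest fall among those called, whose groups do not overlap and whose higher group averages 20 or more counts. Each point is a library, blue for untreated and orange for rhCYGB, triangles drawn at 0.02 are libraries with 0 counts, and grey marks levels below 3 counts; EPB41L4A-AS1 and PAX8-AS1 are the most abundant of these genes after rhCYGB.

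Among the genes that fell, TMPO-AS1, PSMG3-AS1 and ZBED5-AS1 had the highest counts of the 12 with the largest change. TMPO-AS1 is named after thymopoietin, a protein of the nuclear lamina, and overlaps its start. It had 166, 217 and 225 counts in untreated and 19, 22 and 32 in rhCYGB libraries, a log2 fold change of -2.85 ± 0.21 (adjusted p = 6.89e-09). PSMG3-AS1, named after a chaperone of proteasome assembly, had 450, 414 and 475 and then 73, 79 and 84 counts (-2.31 ± 0.14, adjusted p = 6.26e-10). The groups of these antisense genes were far apart, and a lack of overlap was a condition of their choice. PSMG3 itself fell by less than 2-fold (-0.42 ± 0.06, adjusted p = 2.23e-05).

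ZBED5-AS1, whose start lies 164 bases from that of ZBED5, went from 224, 304 and 282 to 60, 31 and 42 counts (-2.41 ± 0.19, adjusted p = 1.13e-08), while ZBED5 had 917, 1071 and 1049 and then 841, 769 and 896 (-0.08 ± 0.06, adjusted p = 0.214). RHPN1-AS1 went from 120, 108 and 87 to 15, 11 and 12 counts (-2.86 ± 0.28, adjusted p = 1.63e-07). RHPN1 had overlapping groups (-0.07 ± 0.05, adjusted p = 0.275). In both pairs the antisense gene fell while its partner did not pass the test. Of the abundant genes, TLR8-AS1 fell from 1049, 1270 and 1192 to 334, 283 and 352 counts (-1.66 ± 0.07, adjusted p = 6.32e-12). ARHGAP5-AS1, beside the gene of a GTPase-activating protein, fell from 974, 1114 and 1196 to 415, 349 and 454 counts (-1.24 ± 0.08, adjusted p = 1.50e-09). ARHGAP5 stayed at 243 ± 8.46 and 250 ± 9.55 CPM, and its direction turned from 0.04 to -0.12 with total counts and -0.10 with upper-quartile factors, the median of all genes being -0.17 and -0.15 under these scalings.

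The other 8 of the 12 largest falls met the detection rule in untreated cells only and are given without a test. PITRM1-AS1, named after a mitochondrial protease, had 21, 20 and 19 counts in untreated and 0 in all 3 rhCYGB libraries, which is at least 5.85-fold lower. KDM4A-AS1, named after a histone demethylase, had 64, 85 and 86 and then 8, 4 and 13 counts (-3.02 ± 0.34). NPPA-AS1, named after the gene of atrial natriuretic peptide, had 63, 62 and 68 and then 13, 6 and 16 counts (-2.27 ± 0.33), with NPPA at 0 in all libraries. HOXA-AS2, from the HOXA cluster of homeobox genes, had 47, 65 and 47 and then 6, 9 and 4 counts (-2.84 ± 0.38). All untreated libraries of these genes lay above all rhCYGB ones, which was a condition of their choice. UBAC2-AS1, SNRK-AS1, CIRBP-AS1 and TRG-AS1 had log2 fold changes of -2.34 ± 0.38, -2.96 ± 0.52, -2.56 ± 0.58 and -2.24 ± 0.64, from 16 to 76 counts in untreated libraries and 0 to 14 after rhCYGB. CIRBP, a cold-inducible RNA-binding protein, was higher by less than 2-fold (0.47 ± 0.05, adjusted p = 3.81e-07). The 54 antisense genes called lower outside the rule for named genes had fitted log2 fold changes up to -1.01. FLG-AS1, USP3-AS1, MYLK-AS1 and ZNF710-AS1 also had 0 counts in all rhCYGB libraries, with bounds of at least 4.54-, 5.02-, 4.39- and 4.44-fold lower, and FLG-AS1 and ZNF710-AS1 were named after their values were seen.

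Several antisense genes with a described role, or with a partner in the cell cycle, changed little. OIP5-AS1, known to bind the microRNA miR-7, had 3183, 3844 and 3784 counts in untreated and 2954, 2573 and 3087 in rhCYGB libraries. It fell by 0.13 ± 0.05 (adjusted p = 0.0177), which was above 0.05 without rhCYGB library 1 or 2 or untreated library 3 (log2 fold changes from -0.12 to -0.09). OIP5, part of the complex that prepares centromeres, fell from 339, 429 and 377 to 115, 113 and 142 counts (-1.43 ± 0.12, adjusted p = 2.81e-08).

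FGD5-AS1 fell by less than 2-fold, from 70.9 ± 2.45 to 57.1 ± 4.23 CPM (-0.31 ± 0.05, adjusted p = 8.94e-05). PSMA3-AS1, beside a proteasome subunit gene, fell from 16.2 ± 0.622 to 9.54 ± 0.131 CPM (-0.76 ± 0.08, adjusted p = 3.37e-07), and MCM3AP-AS1, beside a gene of mRNA export, from 5.57 ± 0.571 to 3.32 ± 0.549 CPM (-0.75 ± 0.15, adjusted p = 0.000417). Both partners fell too, PSMA3 by 0.43 ± 0.04 (adjusted p = 3.64e-08) and MCM3AP by 0.13 ± 0.04 (adjusted p = 0.00861). ZEB1-AS1 rose from 8.61 ± 1.26 to 12.2 ± 0.302 CPM (0.50 ± 0.11, adjusted p = 0.000599), while ZEB1, a repressor of epithelial genes, rose from 37.7 ± 1.75 to 85.3 ± 3.44 CPM (1.18 ± 0.05, adjusted p = 8.80e-12). PRKCQ-AS1 rose by 0.74 ± 0.20 (adjusted p = 0.00353). SBF2-AS1 fell by 0.50 ± 0.17 (adjusted p = 0.0154) and passed 0.05 no longer without untreated library 2 (-0.47) or rhCYGB library 3 (-0.40).

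VIM-AS1, FOXN3-AS1, DLGAP1-AS1, HOXB-AS1 and TTN-AS1 had overlapping groups and adjusted p-values of 0.728, 0.896, 0.780, 0.566 and 0.300. VIM-AS1 was at 4.74 ± 0.386 and 4.56 ± 0.902 CPM, and its partner VIM, the intermediate filament vimentin, rose by 0.55 ± 0.02 (adjusted p = 1.12e-11). The antisense level was 0.0545% of VIM in FPKM; the deposited bounds of both genes overlap, and the part of misassigned reads was not tested. HOXB-AS3 and ITGB2-AS1 met the rule in untreated cells only, with 19, 16 and 18 and then 9, 8 and 10 counts, and with 22, 38 and 28 and then 13, 4 and 3 counts. Of the chosen genes with a described role, NNT-AS1, PCNA-AS1, CDK6-AS1, CDKN2B-AS1, HIF1A-AS1, HIF1A-AS2, HIF1A-AS3, EGFR-AS1, HOXA-AS3, LOXL1-AS1, ATF2-AS1, GATA3-AS1, MAFG-AS1 and LEF1-AS1 were not among the detected genes.

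The change of an antisense gene followed that of its partner little. Across the 278 pairs in which both genes were tested, the log2 fold changes had a Pearson r of 0.10 and a Spearman rho of -0.02, as a description across genes that share the same 6 libraries. Both genes were called in 27 pairs, 15 in the same and 12 in opposite directions. These counts include antisense genes that met the detection rule in 1 group only, which favours a call; over the 214 pairs that met it in both groups, 9 were called in the same and 4 in opposite directions. Of the 278 pairs, the antisense gene alone was called in 67, the partner alone in 51 and neither in 133. Taken singly, 34.5% of the antisense genes and 28.1% of the partners were called, against 27.1% of all genes tested. The first share includes the genes that met the rule in 1 group only. Of the 238 that met it in both groups, 8.0% were called higher and 18.9% lower, against 12.4% and 14.7% of all genes tested. Whether both genes of a pair were called more often than these shares would give was not tested. The antisense change lay below the partner's change in 197 pairs, with a median difference of -0.64, and in 147 of the 214 pairs that met the rule in both groups, with a median of -0.55. The log2 ratio of antisense to partner did not overlap between the groups in 198 of the 278 pairs (lower after rhCYGB in 149 and higher in 49) and in 155 of the 214 (lower in 110 and higher in 45). For single genes, the groups did not overlap in CPM in 79.5% of all genes tested. The share of such ratios over other pairs of genes was not computed. With 3 against 3 libraries an exact permutation test of a single ratio cannot go below 0.1.

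**Figure D4:**
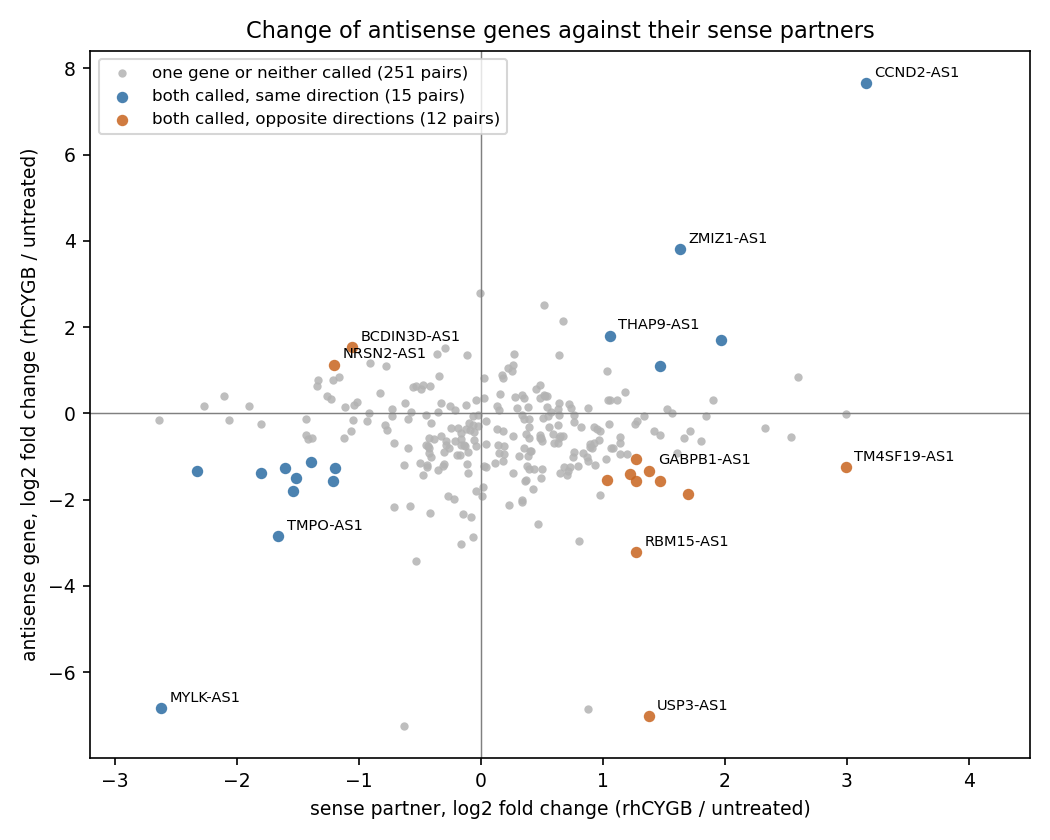
Log2 fold change (rhCYGB over untreated) of each antisense gene (vertical) against its sense partner (horizontal) for 278 pairs. Blue points are the 15 pairs called in the same direction, orange points the 12 called in opposite directions and grey points the other 251; fitted values near -7 and 8 belong to genes with 0 counts in 1 group and are no bounds.

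In 10 of the 12 opposite pairs the antisense gene was lower and the partner higher, but 7 of these 10 antisense genes met the detection rule in untreated cells only, and with the rule met in both groups the split was 3 against 1. GABPB1-AS1 showed this at the highest counts. It had 335, 475 and 413 counts in untreated and 134, 120 and 171 in rhCYGB libraries (-1.33 ± 0.13, adjusted p = 1.58e-07). GABPB1, the beta subunit of the ETS factor GA-binding protein, had 706, 846 and 732 and then 1859, 1570 and 1774 counts (1.38 ± 0.05, adjusted p = 3.26e-12). Neither set of groups overlapped, and both genes share 424 exon bases in GENCODE 29, part of which is printed above. The complementary run of 428 bases was found by matching letters of the transcripts, so not all of it is shared exon. SH3BP5-AS1 had 93, 166 and 137 and then 24, 34 and 60 counts (-1.54 ± 0.28, adjusted p = 0.000130), and SH3BP5, an activator of a Rab GTPase, 518, 664 and 575 and then 1046, 1005 and 1083 (1.03 ± 0.06, adjusted p = 4.67e-10). ZNF213-AS1 went from 40, 41 and 56 to 13, 12 and 15 counts (-1.58 ± 0.33, adjusted p = 0.000419), and ZNF213, a zinc finger gene, from 256, 376 and 252 to 738, 629 and 763 (1.47 ± 0.10, adjusted p = 3.34e-09). The last pair shares no exon bases in GENCODE 29.

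The antisense genes of the other 7 such pairs met the detection rule in untreated cells only, so only their partners are tested here. ARRDC3-AS1 had 40, 63 and 54 and then 18, 12 and 7 counts, and ARRDC3, an alpha-arrestin, rose from 1793, 2166 and 1926 to 5905, 5037 and 5798 (1.70 ± 0.04, adjusted p = 1.47e-14). The 249 bases between their starts are printed above. RBM15-AS1 had 13, 19 and 25 and then 0, 5 and 0 counts, and RBM15, of the RNA methylation machinery, rose by 1.27 ± 0.09 (adjusted p = 3.05e-09). USP3-AS1 had 19, 13 and 19 counts and then 0 in all 3 libraries, and USP3, a histone deubiquitinase, rose by 1.38 ± 0.06 (adjusted p = 6.92e-12). In these 3 pairs no antisense library after rhCYGB reached an untreated one, which the detection rule favours. Over all genes tested, the groups did not overlap in CPM in 79.5%. SEC24B-AS1 had 24, 19 and 27 and then 6, 8 and 9 counts, and SEC24B, a coat protein of transport vesicles, rose by 1.23 ± 0.05 (adjusted p = 3.75e-12).

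TAF1A-AS1, BTG3-AS1 and TM4SF19-AS1 were the least certain of the opposite pairs. These antisense genes met the detection rule in untreated cells only, which favours a lower call, so their calls are not read as a test. The calls also depended on single libraries. TAF1A-AS1 had 32, 48 and 16 and then 6, 7 and 15 counts, and BTG3-AS1 16, 43 and 26 and then 13, 4 and 18, and the groups of both overlapped. The call of TAF1A-AS1 was lost without untreated library 2 (log2 fold change -1.24), that of BTG3-AS1 without any 1 of rhCYGB libraries 1 and 2 and untreated libraries 2 and 3 (-1.12 to -0.70), and that of TM4SF19-AS1 without rhCYGB library 3 or untreated library 2 or 3 (-1.22 to -0.80). TM4SF19-AS1 had 20, 31 and 26 and then 12, 13 and 3 counts but did not fall in FPKM (0.365 ± 0.139 and 0.383 ± 0.318), as the share of counts given to its 320-base transcript was 4.30% ± 7.45 in untreated and 37.2% ± 32.7 in rhCYGB libraries. Their partners rose in every setting tried, with TM4SF19, a tetraspanin-like membrane protein, at 2.99 ± 0.22 (adjusted p = 4.58e-09), TAF1A, a factor of RNA polymerase I, at 1.27 ± 0.07 (adjusted p = 2.54e-10) and BTG3, an inhibitor of proliferation, at 1.27 ± 0.08 (adjusted p = 1.18e-09).

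In the remaining 2 opposite pairs the antisense gene was higher. NRSN2-AS1 had 122, 174 and 176 and then 265, 291 and 341 counts (1.13 ± 0.14, adjusted p = 2.65e-06), and NRSN2, which encodes neurensin, 2475, 3189 and 2925 and then 1135, 969 and 1156 (-1.20 ± 0.05, adjusted p = 9.30e-12). Their groups did not overlap, and the deposited bounds of both genes do not touch. BCDIN3D, an RNA methyltransferase gene, fell from 158, 169 and 187 to 64, 75 and 77 counts (-1.05 ± 0.17, adjusted p = 4.58e-05), against the higher counts of BCDIN3D-AS1 given above. TRIM52-AS1 and TRIM52, a ubiquitin ligase gene, parted likewise below the fold limit, as the antisense gene rose from 269, 412 and 312 to 552, 479 and 516 counts (0.84 ± 0.10, adjusted p = 1.52e-06) and TRIM52 fell from 487, 449 and 559 to 192, 195 and 200 (-1.16 ± 0.12, adjusted p = 5.10e-07).

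Of the 15 pairs called in the same direction, 5 were higher and 10 lower (3 and 6 with the rule met in both groups). CCND2, the cell cycle gene of cyclin D2, rose from 54, 56 and 36 to 390, 347 and 406 counts (3.16 ± 0.16, adjusted p = 5.87e-11) together with CCND2-AS1. THAP9 rose from 47, 92 and 91 to 120, 126 and 169 counts (1.06 ± 0.22, adjusted p = 0.000415), USP2 from 29, 27 and 45 to 131, 100 and 118 (1.97 ± 0.24, adjusted p = 1.89e-06), and ZMIZ1, a transcriptional coactivator, from 1077, 1248 and 1212 to 3081, 2810 and 3722 (1.63 ± 0.07, adjusted p = 8.03e-12). Each of these partners stood above its untreated libraries in all 3 rhCYGB libraries.

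TMPO fell from 6641, 7976 and 7954 to 2286, 1757 and 2215 counts (-1.66 ± 0.06, adjusted p = 6.57e-13), less than TMPO-AS1 did, and the log2 ratio of TMPO-AS1 to TMPO did not overlap between the groups. MNX1-AS1 had 208, 187 and 196 and then 95, 81 and 60 counts (-1.14 ± 0.19, adjusted p = 6.16e-05). MNX1, a homeobox factor of the developing pancreas, had 299, 303 and 342 and then 98, 93 and 125 (-1.39 ± 0.14, adjusted p = 2.94e-07). Here the ratio overlapped between the groups. ATP2A1-AS1, with 49, 73 and 74 and then 12, 27 and 9 counts, met the rule in untreated cells only, and ATP2A1, a calcium pump gene of muscle, fell from 111, 165 and 118 to 33, 40 and 44 (-1.54 ± 0.21, adjusted p = 7.08e-06). DEPDC1 fell by 1.22 ± 0.06 (adjusted p = 1.85e-11) beside DEPDC1-AS1, which went from 51, 48 and 44 to 17, 18 and 7 counts. MYLK, the myosin light chain kinase gene, had 14, 35 and 24 and then 5, 0 and 5 counts (-2.62 ± 0.61, adjusted p = 0.00116), and MYLK-AS1 14, 13 and 18 and then 0 in all 3. DEPDC1-AS1 and MYLK-AS1, like ATP2A1-AS1, met the rule in untreated cells only, so their lower counts entered the choice.

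Among the abundant antisense genes, a called partner was also seen beside genes that stayed below 2-fold. SLC9A3-AS1 had 1704, 1910 and 1526 and then 1895, 1703 and 1949 counts (0.30 ± 0.06, adjusted p = 0.000467), and it did not pass 0.05 with unscaled total counts or with limma on FPKM (0.14 in each). SLC9A3, a sodium-proton exchanger gene, rose from 1639, 2411 and 2219 to 6937, 6282 and 7182 counts (1.90 ± 0.06, adjusted p = 5.09e-13). AGAP2-AS1 rose from 495, 439 and 387 to 783, 700 and 811 counts (0.98 ± 0.11, adjusted p = 5.23e-07). AGAP2, a GTPase-activating protein of Arf, had only 9 to 22 counts (1.04 ± 0.40, adjusted p = 0.0270), a call that was lost without untreated library 1 or 2 or rhCYGB library 3 (0.93 to 1.00). RNASEH1-AS1 rose by 0.64 ± 0.09 (adjusted p = 7.32e-06) and RNASEH1, the RNA-DNA hybrid nuclease whose start is 53 bases away, fell by 0.41 ± 0.04 (adjusted p = 2.14e-07).

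The position of the antisense start was next compared. The RefSeq table for GRCh38.p14 placed both starts in 221 of 306 pairs, always on opposite strands. In 86 divergent pairs the antisense gene started up to 1000 bases upstream of the partner, at a median distance of 120.5 and at most 673 bases. In 45 pairs it started within 1000 bases downstream, in 79 further downstream and in 11 further upstream. Of the 86 divergent antisense genes, 4 were called higher and 26 lower (median log2 fold change -0.60), and of their 84 tested partners 12 were higher and 6 lower (median 0.26), where 12.4% of all genes were called higher and 14.7% lower. Among the 62 divergent antisense genes that met the rule in both groups, 3 were called higher (4.8%) and 10 lower (16.1%), a lower share near that of all genes, with a median of -0.41 against 0.22 in 60 tested partners.

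The 45 antisense genes that start just downstream had 3 higher and 15 lower calls (median -0.64), and their 43 tested partners 5 and 7 (median 0.04). The 79 that start further downstream had 5 and 19 (median -0.31), and their 69 tested partners 11 and 15 (median -0.005). With the rule met in both groups, 3 of 37 antisense genes just downstream were called higher and 11 lower (29.7%), with a median of -0.61 against 0.04 in their partners, and 4 of 63 further downstream were called higher and 11 lower (17.5%), with a median of -0.24 against -0.005. The difference between arrangements was not tested. The Spearman rho between antisense and partner change was -0.05 over 84 divergent, 0.13 over 43 just downstream and -0.14 over 70 further downstream pairs, as a description. It was -0.05 over 185 pairs that share exon bases and 0.0005 over 67 that share none, and 9 and 10 pairs were called in the same and in opposite directions with shared exon bases, against 5 and 2 without. With the rule met in both groups these counts were 6 and 2 with shared exon bases and 2 and 2 without.

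**Figure D5:**
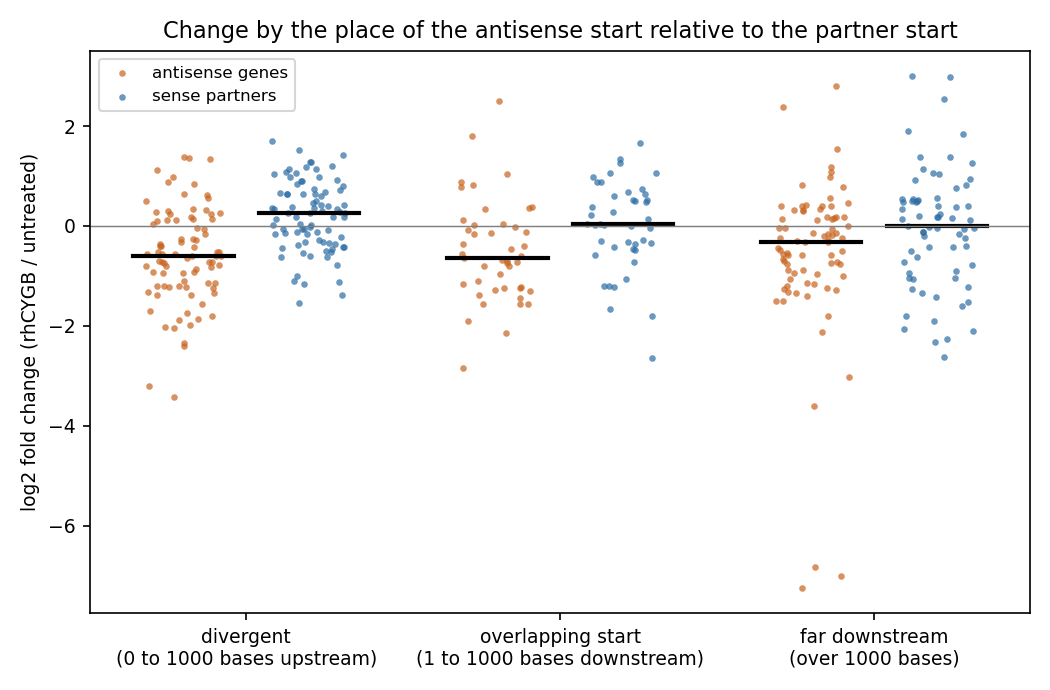
Log2 fold change (rhCYGB over untreated) of antisense genes (orange) and their sense partners (blue) by the place of the antisense start relative to the partner's start; each point is a gene and black bars are medians. The medians of the antisense genes were -0.60, -0.64 and -0.31 and those of the partners 0.26, 0.04 and -0.005, including genes that met the detection rule in 1 group only, and pairs further upstream or not placed are left out.

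In some genes the transcripts that carried the counts differed between the groups. StringTie apportions reads between overlapping transcripts, so these shares are estimates. PAX8-AS1 has 2 transcripts of 2700 and 1921 bases. The longer one went from 417, 576 and 383 to 3298, 2737 and 3153 counts and the shorter one from 39, 61 and 57 to 20, 34 and 39, so that the share of the shorter one was 10.4% ± 2.30 in untreated and 1.02% ± 0.359 in rhCYGB libraries (SD, n = 3). The rise thus lay in the longer transcript. THAP9-AS1 has 3 transcripts of nearly equal length, and the one of 2209 bases went from 0, 60 and 0 to 701, 682 and 771 counts, that is from 3.59% ± 6.22 to 46.9% ± 5.32 of the gene. In TRAF3IP2-AS1 the transcript of 2195 bases held 69.4% ± 6.54 and then 95.1% ± 1.13. The groups did not overlap in any of these 3 shares, but how often this holds over other genes was not computed. Elsewhere such estimates varied within a group. The PSMA3-AS1 transcript of 2483 bases had 0, 53 and 241 counts in the rhCYGB libraries.

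Genes that act on antisense or double-stranded RNA were examined as 2 lists. Of 26 genes of the nuclear exosome and its adaptors, 3 were called higher and 2 lower, and by adjusted p alone 13 were higher and 10 lower (median log2 fold change 0.13, against -0.005 over all genes). The called genes were ZCCHC7, an RNA-binding subunit of the TRAMP complex (1.86 ± 0.06, adjusted p = 1.83e-13), ZCCHC8, a scaffold of the NEXT complex (1.22 ± 0.05, adjusted p = 4.77e-12), the noncanonical poly(A) polymerase TENT4B (1.02 ± 0.05, adjusted p = 3.22e-11), ZFC3H1, a scaffold of the PAXT connection (-1.31 ± 0.08, adjusted p = 4.38e-10), and the exosome cofactor MPHOSPH6 (-1.05 ± 0.06, adjusted p = 5.12e-10). EXOSC10, a catalytic subunit, rose by 0.50 ± 0.04 (adjusted p = 9.71e-09), whereas DIS3 had overlapping groups (0.05 ± 0.05, adjusted p = 0.338, edgeR). The helicase MTREX fell by 0.61 ± 0.04 (adjusted p = 4.59e-10). Adaptors of different branches thus moved in different directions.

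Of 27 genes that bind, edit, sense or process double-stranded RNA, 1 was called higher and 4 lower, and by adjusted p alone 9 were higher and 15 lower (median -0.20). AGO3, an Argonaute protein, rose by 1.35 ± 0.06 (adjusted p = 1.82e-11). The lower ones included the sensors OAS3 (-1.74 ± 0.07, adjusted p = 2.13e-12) and OAS1 (-1.33 ± 0.16, adjusted p = 1.43e-06), and DGCR8 of the microRNA processor (-1.11 ± 0.06, adjusted p = 2.22e-10). The editing enzyme ADAR fell by 0.22 ± 0.04 (adjusted p = 0.000102). DICER1, whose shared stretch with DICER1-AS1 is printed above, rose by 0.43 ± 0.05 (adjusted p = 4.97e-07), while DICER1-AS1 had 32, 41 and 32 and then 11, 8 and 8 counts and met the detection rule in untreated cells only. The share called was 19.2% and 18.5% in these lists, against 27.1% over all genes, and the share that passed by adjusted p alone was 88.5% and 88.9%, against 77.6% over all genes.

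The genes closest to the detection limit had few counts in every library. The 6 members whose lowest count in the better group was 10 were HDHD5-AS1, MCF2L-AS1, RAET1E-AS1, RNF139-AS1, ADNP-AS1 and SLC12A9-AS1, with 0 to 20 counts per library. The 6 genes just outside, with a lowest count of 9, were RGMB-AS1, C2CD4D-AS1, PSMD6-AS2, LRP4-AS1, LIPC-AS1 and SREBF2-AS1, with 0 to 29. Both sets cover the same low range.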

How the data were processed

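RNA-seq of 6 MIA PaCa-2 libraries was analysed, grouped by their labels. The read counts and FPKM values per gene and per transcript were deposited by the authors, who used FastQC 0.11.7, HISAT2 2.1.0 and StringTie 2.1.3b, a tool that estimates counts from coverage. Counts are not normalized, and FPKM is scaled to length and depth. The authors also deposited TPM (FPKM-like values rescaled to a common sum per library) in 6 columns per table, not used here. The table's build is not given in the sources used here, since the labels name a mouse build, and its positions are not those of GRCh38.

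Counts were tested with edgeR 4.0.16 in R 4.3.3 (filterByExpr, TMM, quasi-likelihood, two-sided, no block) over 14728 genes, and the fit was tested on simulated data. The SE is the log2 fold change over the root of the F statistic. Alternatives used limma 3.58.1, DESeq2 1.42.0, other scalings, filters and left-out libraries. The SE includes the fitted spread between libraries, whereas the floors cover counting error only.

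The members, lists and rules were chosen with earlier results of these data known. Named were the 10 members of highest FPKM, the 12 largest rises and 12 largest falls (called, no overlap, mean count 20 or more), the opposite pairs, the 8 largest same-direction pairs, a list of antisense genes with known roles or cell cycle partners, and genes beside the detection limit. Some genes and sequences that the rule names are not reported here.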

Additional observations from a re-analysis of the deposited data

How the results depend on the processing

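Of 1732 values for 110 named genes and partners under the alternatives, 1672 kept their direction and their side of the threshold, 35 lost significance, 23 gained it and 2 changed sign, both of ARHGAP5 (-0.12 with total counts and -0.10 with upper-quartile factors). Leaving out 1 library gave 22 to 26 antisense genes called higher, 75 to 84 lower, 42 to 48 partners higher, 31 to 34 lower, 13 to 16 same-direction and 9 to 13 opposite pairs. With the replicate block, 24 antisense genes were called higher and 81 lower, with 15 same-direction and 11 opposite pairs. Same-numbered libraries did not deviate together (r of -0.05, 0.007 and 0.006). The labels do not say whether the numbers pair them, and a low correlation cannot show that they do not.

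With limma on log2(FPKM + 1), 4 antisense genes were called higher and 12 lower, 21 partners higher, 1 pair in the same direction, 0 opposite and 3 exosome genes; that scale understates changes of low genes. With log2(FPKM + 0.1), 13 antisense genes were called higher. Requiring 10 counts in every library left 46 antisense genes called lower, 9 same-direction and 4 opposite pairs, because only 238 members were then tested. By adjusted p alone the numbers were 46 antisense genes higher and 129 lower, 143 partners higher and 95 lower, 56 same-direction and 78 opposite pairs, and 23 exosome and 24 double-stranded RNA genes. Chosen after seeing the data were pairs without exon overlap only (5 same-direction and 2 opposite) and members with 10 counts in all libraries only (45 lower). A detection minimum of 5 or 20 counts gave 360 or 250 members. Deposited bounds overlapped in 210 pairs, and starts lay within 1000 bases in 131. Depth limits the low members most.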
